A study of Mus musculus with 4 samples.

Results

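The very wide shared accessible domains of mouse collecting duct cells are the 309 regions, of 88231 shared regions, that were covered by a peak in all 4 ATAC-seq libraries and were 3000 bp wide or more once the peaks had been merged. Peaks of the 4 libraries were merged wherever they overlapped by 1 bp or more, and the merging gave 560228 regions in all. The 309 make up 0.35% of the shared regions. Every merged region that reached 3000 bp in these lists had a peak in all 4 libraries. The members were chosen by their measured width and their presence in every library, so both are given as a description, with no test.

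ATAC-seq marks accessible chromatin by letting the transposase Tn5 cut and tag exposed DNA. The libraries came from mpkCCD cells, clone 11, a mouse line of cortical collecting duct cells that responds to vasopressin, at passages 8 to 10. In the dDAVP group (2 libraries) confluent cells on permeable supports received 0.1 nM dDAVP, an analog of vasopressin that is selective for the V2 receptor, for 30 minutes. In the vehicle group (2 libraries) they received its vehicle for the same time. Both groups had been grown with serum, insulin, dexamethasone, triiodothyronine and epidermal growth factor and were then moved to medium without serum and hormones. Both groups are this 1 clone, each library was made from 50000 cells, and no label names separate cultures within a group, so p-values measure only the spread between these libraries, which may be a technical one. At Aqp2, the water channel gene by which principal cells of the collecting duct are known, all 4 libraries had peaks, in merged regions of 1810, 672 and 497 bp, so Aqp2 was not among the wide domains. Of 26 principal cell genes, 19 had a shared region within 1 kb of an end of the gene, against 10 of 32 genes of podocytes, endothelium, stroma and leukocytes, 11 of 28 genes of other tubule cells and 19 of 40 genes of other organs. Among all protein-coding genes that share was 64.2%.

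DNA in the nucleus is wound around nucleosomes, and an ordinary open promoter or enhancer is a gap of about 1 or a few of them. Wide stretches of accessible chromatin are known from the promoters of highly transcribed and CpG-rich genes, from clusters of enhancers, and from transcribed ribosomal and transfer RNA genes. Mitochondrial DNA, which carries no nucleosomes, and repeated DNA that occurs in many near-identical copies can also fill wide peaks. The deposited lists hold positions only, with no score, summit or read depth, so the height of a domain and the uniqueness of the reads within it are unknown, and whether any domain rests on reads that map to several places was not tested.

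The domains that hold the start of a protein-coding gene are those for which sequence was at hand. For 6 of them the 300 bases around the start are shown, from 250 bases before to 50 bases after it, as RefSeq gives them on GRCm38.p6, the same assembly as mm10, 5′ to 3′ on the strand of the gene. They were picked after their values were seen, as 3 genes with a single peak over 3000 bp in all libraries (Irf2bpl, Foxo3 and Actg1) and the 3 bZIP factors with a wide domain (Ddit3, Jun and Fos). Capitals mark matches to 7 short motifs on either strand: the cAMP response element TGACGTCA, the AP-1 site TGANTCA, the GC box GGGCGG, the ETS site CCGGAAG, the CCAAT box CCAAT, the TATA box TATAAA and an NRF1-like site, GCGC, any 2 bases and GCGC. Matches may touch or overlap, as the GC boxes of Actg1 do.
Irf2bpl, chr12:86884765-86885064, minus strand: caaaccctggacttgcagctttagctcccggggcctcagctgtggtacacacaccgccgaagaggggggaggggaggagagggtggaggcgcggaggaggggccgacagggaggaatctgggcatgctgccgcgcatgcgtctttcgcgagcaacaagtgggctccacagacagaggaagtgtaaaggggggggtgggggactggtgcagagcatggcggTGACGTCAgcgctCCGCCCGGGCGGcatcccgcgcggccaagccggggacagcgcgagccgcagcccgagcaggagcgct
Foxo3, chr10:42276646-42276945, minus strand: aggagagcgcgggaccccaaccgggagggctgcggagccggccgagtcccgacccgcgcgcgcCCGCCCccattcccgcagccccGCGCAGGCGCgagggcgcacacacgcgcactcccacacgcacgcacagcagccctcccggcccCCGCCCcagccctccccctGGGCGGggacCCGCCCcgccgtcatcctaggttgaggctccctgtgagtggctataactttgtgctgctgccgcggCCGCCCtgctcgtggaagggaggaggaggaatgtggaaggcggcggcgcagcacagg
Actg1, chr11:120348446-120348745, minus strand: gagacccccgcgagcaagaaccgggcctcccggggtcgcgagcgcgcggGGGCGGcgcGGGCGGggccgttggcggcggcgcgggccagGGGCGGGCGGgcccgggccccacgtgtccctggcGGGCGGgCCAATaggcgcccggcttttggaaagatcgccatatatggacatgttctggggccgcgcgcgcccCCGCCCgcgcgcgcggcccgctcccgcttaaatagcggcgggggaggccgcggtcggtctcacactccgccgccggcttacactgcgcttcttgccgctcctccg
Ddit3, chr10:127290543-127290842, plus strand: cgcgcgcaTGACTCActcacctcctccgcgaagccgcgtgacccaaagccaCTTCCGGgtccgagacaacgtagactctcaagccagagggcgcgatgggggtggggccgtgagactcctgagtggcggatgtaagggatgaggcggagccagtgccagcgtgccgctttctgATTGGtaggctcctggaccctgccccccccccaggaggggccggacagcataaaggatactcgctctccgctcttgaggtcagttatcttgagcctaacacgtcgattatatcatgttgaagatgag
Jun, chr4:95052173-95052472, minus strand: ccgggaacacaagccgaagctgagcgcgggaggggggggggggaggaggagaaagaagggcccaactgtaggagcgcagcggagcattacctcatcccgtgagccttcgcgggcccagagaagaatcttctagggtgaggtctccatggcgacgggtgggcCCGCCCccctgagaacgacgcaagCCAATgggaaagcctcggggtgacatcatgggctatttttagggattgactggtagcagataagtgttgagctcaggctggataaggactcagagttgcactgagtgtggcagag
Fos, chr12:85473640-85473939, plus strand: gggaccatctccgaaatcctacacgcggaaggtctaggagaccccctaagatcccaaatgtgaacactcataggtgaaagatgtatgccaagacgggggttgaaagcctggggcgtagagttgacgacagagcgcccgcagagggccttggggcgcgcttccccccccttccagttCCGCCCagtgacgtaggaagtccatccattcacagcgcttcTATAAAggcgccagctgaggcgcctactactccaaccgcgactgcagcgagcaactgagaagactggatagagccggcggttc
The Irf2bpl window held 1 cAMP response element and 2 GC boxes, and was the only window among these 6 with the exact letters TGACGTCA. The Foxo3 window held 5 GC boxes and 1 NRF1-like site, and that of Actg1 held 6 GC boxes and 1 CCAAT box. The Ddit3 window held 1 AP-1 site, 1 ETS site and 1 CCAAT box with no GC box. The Jun window held 1 GC box and 1 CCAAT box, and the Fos window 1 GC box and 1 TATA box. A match describes the letters alone and does not show a bound factor. Only exact letters were searched, so variants of a motif were not counted, and a window without a match may still hold such a variant.

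Over all windows whose gene start lay in a wide domain (73 windows of 54 genes), the median GC content was 64.7% and the median ratio of observed to expected CpG was 0.766. In windows whose start lay in a shared region of 2000 bp to under 3000 bp (917 windows) the same medians were 64.7% and 0.782, in those within any shared region (12404 windows) 62.0% and 0.774, and over all 21262 windows of protein-coding genes 56.3% and 0.567. The GC box was present in 76.7% of the windows in wide domains, against 72.5% in regions of 2000 bp to under 3000 bp, 67.5% in any shared region and 46.2% of all windows. The ETS site was present in 9.59% of the windows in wide domains, against 8.62%, 18.1% and 11.6% in those same 3 sets. The CCAAT box was present in 24.7% of the windows in wide domains, against 34.0%, 37.5% and 38.2%. The cAMP response element was present in 3 of the 73 windows (4.11%), against 1.96%, 3.22% and 2.23%. The AP-1 site was present in 5.48% of the windows in wide domains, against 6.22%, 4.69% and 6.99%, the TATA box in 11.0%, against 7.20%, 6.42% and 12.6%, and the NRF1-like site in 17.8%, against 12.8%, 13.6% and 8.57%. The promoters in wide domains were thus close in GC and CpG content to those in the next narrower class of shared regions. A gene with several starts counts once per window, and windows can overlap. The same site can thus be counted more than once, as the NRF1-like sites of Ing1 and of Brd2 and H2-DMa were.

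The merged domains ranged from 3000 to 11076 bp with a median of 3374 bp, against a median of 770 bp over all shared regions, and covered 1138 kb in total. Most lay near the threshold: 184 were under 3500 bp, 72 were 4000 bp or wider and 18 were 5000 bp or wider. Just inside the threshold lay the domains nearest to 5031439G07Rik and Ighmbp2 (3000 bp each), Ptprt (3003 bp), Rtl1 (3008 bp) and Gadd45g (3010 bp). Just outside lay regions nearest to Arhgef2 (2999 bp), Syne2 (2998 bp), Nr3c1 (2997 bp), Mllt11 (2995 bp) and Dnajb9 (2986 bp). The Nr3c1 region, within the gene of the glucocorticoid receptor, held a single peak of 2938 and 2955 bp in the dDAVP libraries and of 2983 and 2991 bp in the vehicle libraries. It was thus more even between libraries than the 5 domains just inside. The Syne2 region was uneven, with widest peaks of 2692 and 846 bp in the dDAVP libraries and 855 and 856 bp in the vehicle libraries. The regions just outside thus differed in this among themselves.

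A merged width can come from 1 long peak or from several short peaks that bridge each other. In 52 domains (16.8%) every library held a single peak of 3000 bp or more. In 27 domains 3 libraries did, in 29 domains 2 libraries, and in 74 domains 1 library. In the other 127 domains (41.1%) no library had a peak that long. Each library held exactly 1 peak in 52 domains, and 2 or more in 88. The stretch covered by a peak in all 4 libraries at once had a median of 60.6% of the merged width and ranged from 0% to 99.9%. It reached 3000 bp in 77 domains and stayed under 1000 bp in 62. In 5 domains, nearest to Agpat3, Dnah12, Pcdh8, Ankrd11 and 5031439G07Rik, no base was covered in all 4 libraries.

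The widest single peak per domain had a median of 2461 and 2315 bp in the dDAVP libraries and of 2723 and 2211 bp in the vehicle libraries. The second dDAVP and the second vehicle library had the lower medians, so the groups overlapped. The lists also differed in length, with 291454 and 205771 peaks in the dDAVP libraries and 393956 and 206972 in the vehicle libraries. A single peak of 3000 bp or more was present in 33.3% and 33.0% of the domains in the dDAVP libraries and in 40.5% and 29.4% in the vehicle libraries. Vehicle replicate 1, the longest list, also gave the most domains carried by 1 library: in 19 domains its widest peak was at least 2 times that of every other library. The same held in 4 and 2 domains for the dDAVP libraries and in 4 for vehicle replicate 2. Those 19 included Pcdh8, a protocadherin of cell adhesion, Fzd10, a Wnt receptor, and Npas3, a bHLH-PAS transcription factor. Without vehicle replicate 1, and with presence required in the other 3 libraries, the rule gave 201 domains.

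**Figure D1:**
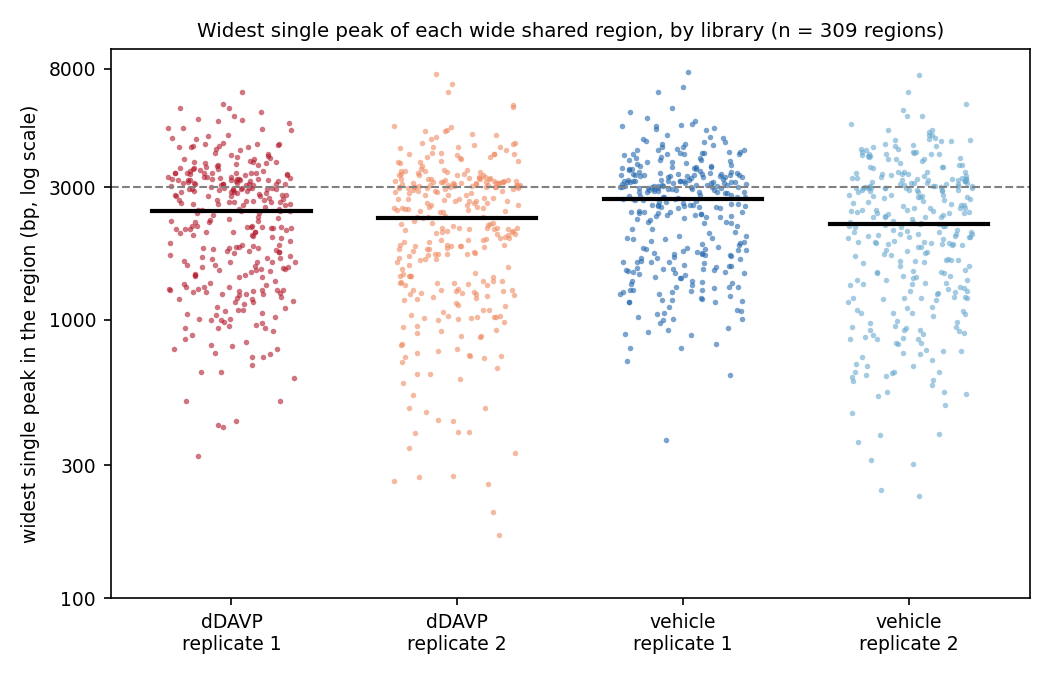
Widest single peak (bp, log scale) of each of the 309 wide shared regions in each library, with 1 point per region, a black bar at the median and a dashed line at 3000 bp. The medians lie at 2461 and 2315 bp in the dDAVP libraries and at 2723 and 2211 bp in the vehicle libraries, and the points reach far below 3000 bp in every library.

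Relative to protein-coding genes, 80 domains (25.9%, exact 95% interval 21.1% to 31.2%) lay within 1 kb of an outermost end of a gene, 103 (33.3%) lay inside a gene away from its ends, 111 (35.9%) outside genes, 13 (4.21%) on scaffolds outside the assembled chromosomes and 2 on the mitochondrial genome. These intervals cover counting error only. Of the regions of 2000 bp to under 3000 bp, 38.4% lay at a gene end and 1.11% on a scaffold. Of all shared regions 16.9% lay at a gene end, 36.7% inside a gene, 46.0% outside and 0.477% on a scaffold. The share at gene ends was therefore above that of all shared regions and below that of the next narrower class, and no test was made of either difference. A wide region reaches a gene end more easily than a narrow one. Counted by the centre of the region, 13.3% of the wide domains lay at a gene end, against 30.2% of the regions of 2000 bp to under 3000 bp and 15.0% of all shared regions.

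**Figure D2:**
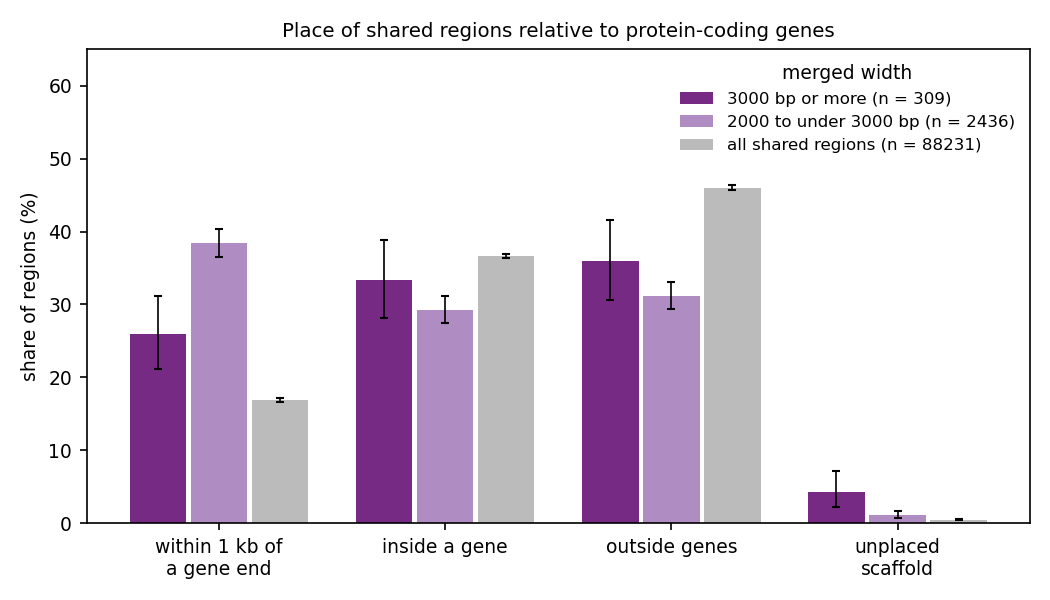
Share (%) of regions in each place relative to protein-coding genes, for the 309 wide domains, the 2436 shared regions of 2000 bp to under 3000 bp and all 88231 shared regions, with exact 95% binomial intervals. Wide domains reach 25.9% at gene ends, between all shared regions (16.9%) and the next narrower class (38.4%). Of the wide domains 4.21% lie on scaffolds outside the assembled chromosomes. The axis labels all of these as unplaced, though some of the scaffolds carry the name of chromosome 1.

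Of the 111 domains outside genes, 97 lay over 10 kb and 45 (40.5%) over 100 kb from the nearest protein-coding gene, against 30.2% over 100 kb among all shared regions outside genes. A single peak of 3000 bp or more in all 4 libraries was found in 24 of the 111 domains outside genes, 17 of the 103 inside genes, 6 of the 80 at gene ends, 3 of the 13 on scaffolds and both on the mitochondrial genome. The median merged width was 3236 bp at gene ends, 3385 bp outside genes and 3437 bp inside genes. At 4000 bp or more were 7 of 80 at gene ends, 26 of 111 outside genes and 28 of 103 inside genes. The stretch covered in all 4 libraries had a median of 68.4% of the width at gene ends, 57.0% outside genes and 48.4% inside genes. The widest peak of the lowest library had a median of 1788, 1443 and 1417 bp in the same order.

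Of the 10 domains with the longest peak in their lowest library, 9 lay outside protein-coding genes and 1 on an unplaced scaffold. At chr9:3031682-3038555, 296676 bp from Alkbh8, a single peak was 6600 and 6605 bp long in the dDAVP libraries and 6874 and 6601 bp in the vehicle libraries. The domain at chr9:3000014-3004819 held peaks of 4794 and 4804 bp in the dDAVP libraries and 4806 and 4805 bp in the vehicle libraries. The widest merged domain, chr9:3011523-3022598 (11076 bp), lay between them and was made of 6 peaks in each dDAVP library and of 10 and 8 in the vehicle libraries, with widest peaks of 4172 and 4768 bp in the dDAVP libraries and 1689 and 2211 bp in the vehicle libraries. These 3 domains and another one lay between 3000014 and 3038555 on chromosome 9, where 4 of 9 shared regions were wide.

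At chr17:39842835-39848826 the peak was 5794 and 5804 bp long in the dDAVP libraries and 5792 and 5979 bp in the vehicle libraries. This domain overlapped Rn18s-rs5, annotated as related to the 18S ribosomal RNA gene, and the noncoding RNA AY036118. At chr1:24611560-24616321 the peak was 4600 and 4761 bp long in the dDAVP libraries and 4600 and 4597 bp in the vehicle libraries, over Gm10222 and Gm10925, of which the gene table lists the second under the synonym mt-Atp6, a subunit of the mitochondrial ATP synthase. The mitochondrial genome itself held 2 wide domains. The first covered positions 26 to 4191, from a transfer RNA gene over both ribosomal RNA genes to ND2, with a peak of 4074 and 4079 bp in the dDAVP libraries and 4164 and 4104 bp in the vehicle libraries. The second, from 11957 to 16266, covered ND5, ND6 and CYTB with 4289 and 4307 bp in the dDAVP libraries and 4115 and 4079 bp in the vehicle libraries. In each of these 4 domains every library held 1 peak that spanned nearly the whole domain, with dDAVP and with vehicle.

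The domain at chr1:171078004-171083675 (5672 bp, 12089 bp from Fcgr3) overlapped 5 transfer RNA genes, n-TEctc7, n-TGtcc4, n-TDgtc6, n-TLcag8 and n-TGgcc14. Transfer RNA genes are short and are transcribed by RNA polymerase III. Its widest peaks were 3129 and 4143 bp in the dDAVP libraries and 3973 and 1887 bp in the vehicle libraries. In all, 4 wide domains (1.29%) overlapped a transfer RNA gene. They were this one, another at Fcgr3 (chr1:171063491-171066889) and both domains on the mitochondrial genome, so nuclear genes were met at the Fcgr3 locus alone. The share was 0.452% of the regions of 2000 bp to under 3000 bp and 0.150% of all shared regions. A longer region overlaps any gene class more easily. Pseudogenes, without those listed as transcribed pseudogenes, were overlapped by 4.85% of the wide domains and 2.09% of all shared regions. Long noncoding RNA genes were overlapped by 14.9% and 11.3%.

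Other domains far from genes also held long peaks in every library. Near Lama2, 201536 bp away, chr10:27818727-27825591 held widest peaks of 5764 and 5896 bp in the dDAVP libraries and 6610 and 5665 bp in the vehicle libraries. Near Nup35, 151796 bp away, chr2:80811867-80817292 held 5422 and 4953 bp in the dDAVP libraries and 4972 and 5405 bp in the vehicle libraries. Near Aga, 1202997 bp away, chr8:52303604-52308686 held 5083 and 4619 bp in the dDAVP libraries and 5029 and 4712 bp in the vehicle libraries. Near Gpr158, 171358 bp away, chr2:22001902-22007307 held 4314 and 4934 bp in the dDAVP libraries and 5330 and 5400 bp in the vehicle libraries. The greatest share covered in all 4 libraries, 99.9%, was at chr14:19415715-19419691, 114009 bp from Gm2244, where the peak was 3976 and 3977 bp in the dDAVP libraries and 3975 and 3976 bp in the vehicle libraries. The table of genes gives no protein-coding gene at any of these places.

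The domains were uneven along the genome. Chromosome 12 held 59 of the 309 (19.1%, against 10.3% of all shared regions), chromosome 8 held 27 (8.74%, against 4.48%) and chromosome 17 held 19 (6.15%, against 3.99%). Chromosome 2 held 11 (3.56%, against 7.34%), chromosome 16 held 8 (2.59%, against 5.82%) and chromosome 19 held 10 (3.24%, against 6.31%). Fewer domains lay on chromosomes 18 (7, or 2.27%, against 1.17%) and Y (2, or 0.647%, against 0.152%). The same holds for chromosomes 7 (4, or 1.29%, against 2.96%) and X (2, or 0.647%, against 1.58%). Within 1 Mb of the first peak of a chromosome lay 18 domains on 10 chromosomes (5.83%), against 1.21% of all shared regions.

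**Figure D3:**
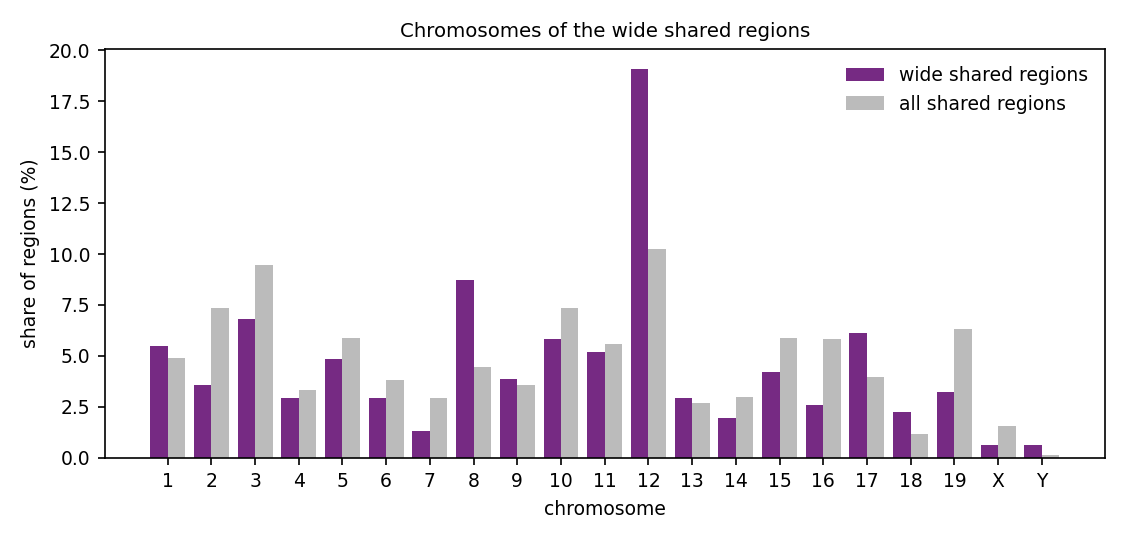
Share (%) of the wide shared regions and of all shared regions on each chromosome, both as a share of all 309 or 88231 regions. Chromosome 12 carries 19.1% of the wide domains and 10.3% of all shared regions, and chromosome 8 carries 8.74% and 4.48%.

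Part of this unevenness came from runs. In 12 runs, 78 domains followed each other in groups of 4 or more with gaps of up to 500 kb. The longest run, chr8:19728008-20948851, held 14 domains, 11 of them outside protein-coding genes, and 210 shared regions per Mb against 31.3 over chromosome 8. It included chr8:20677272-20685505, 30523 bp from Gm21119 and the second widest domain at 8234 bp, with widest peaks of 5270 and 7660 bp in the dDAVP libraries and 7749 and 7603 bp in the vehicle libraries. Its neighbour chr8:20660582-20666867 was less even, with widest peaks of 5973 and 2858 bp in the dDAVP libraries and 5566 and 2482 bp in the vehicle libraries. On 1 unplaced scaffold 8 domains lay within 0.114 Mb, among them 2 of the 12 widest (7067 and 5568 bp).

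On chromosome 12, 13 domains lay between 86458270 and 87041746, at 372 shared regions per Mb against 77.4 over the chromosome. That run covered Esrrb, an orphan nuclear receptor, with 4 domains overlapping the gene, and Irf2bpl, a nuclear protein related to a partner of interferon regulatory factor 2, with 1 domain over its start and 1 on either side. The domains in Esrrb were 4586, 4125, 4002 and 3976 bp wide, and in the widest of them each library held 2 to 5 peaks. The domain over the Irf2bpl start held 1 peak in each library, of 3564 and 3245 bp in the dDAVP libraries and 3324 and 3386 bp in the vehicle libraries. Another run, chr12:81053344-81324021, held 4 domains in Smoc1, a secreted calcium-binding matrix protein, and 1 in Slc8a3, a sodium-calcium exchanger, at 377 shared regions per Mb. Esrrb and Smoc1 were the genes with the most wide domains, and 12 genes had 2 or more, among them Ahnak2, Cmc1, Flg2 and Gm38510 with 2 each. On chromosome 3, 5 domains lay inside epidermal genes of the filaggrin family and its neighbours (Flg, Flg2, Hrnr and Tchh), where 5 of 20 shared regions were wide and the median stretch covered in all libraries was 30.5%.

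Without the domains on scaffolds and the mitochondrial genome, near chromosome starts and in runs, 210 domains were left, of which 72 (34.3%) lay at a gene end, 73 inside a gene and 65 outside genes. In 38 of these 210 a single peak of 3000 bp or more was present in all 4 libraries.

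Inside genes, the widest domain was in Sik3, a salt-inducible kinase that is known to be phosphorylated by protein kinase A and to control CREB coactivators. This domain, chr9:46132728-46138398 (5671 bp), held widest peaks of 5572 and 4273 bp in the dDAVP libraries and 4067 and 4422 bp in the vehicle libraries, and the groups overlapped. In S100a7l2 (5203 bp) the peaks were 4846 and 4262 bp long in the dDAVP libraries and 5190 and 5069 bp in the vehicle libraries. In Ahnak2, a giant scaffold protein of the membrane (5051 bp), they were 3260 and 2924 bp in the dDAVP libraries and 5045 and 2667 bp in the vehicle libraries. Gse1, a protein found in histone deacetylase complexes (4937 bp), had 3659 and 3706 bp in the dDAVP libraries and 3564 and 4806 bp in the vehicle libraries. The promoter table lists Gse1 starts within this domain, away from the outermost ends of the gene. In Pfkp, the platelet type of the glycolytic enzyme phosphofructokinase (4805 bp), the widest peaks were 1263 and 1653 bp in the dDAVP libraries and 2565 and 2177 bp in the vehicle libraries, with 3 peaks in each library. In Thada (4801 bp) they were 4586 and 4311 bp in the dDAVP libraries and 3390 and 2198 bp in the vehicle libraries. In widest peak, both dDAVP libraries were below both vehicle libraries at S100a7l2 and Pfkp and above them at Thada. Over all domains this measure lay below in 57 (18.4%, against 17.5% of all shared regions) and above in 37 of 309 (against 13.2%), so such a split at single domains is common among all regions. In covered length the groups overlapped at Pfkp, with 2406 and 3879 bp in the dDAVP libraries and 3854 and 3302 bp in the vehicle libraries.

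Domains over a gene start were counted with the promoter table, which gives the strand and holds 17491 of the 21883 protein-coding genes. In it, 50 domains held the start of 54 protein-coding genes. Measured from the most upstream start, the domain reached a median of 1078 bp upstream and 2144 bp into the gene, and it reached further into the gene than upstream at 37 of the 54. Where a domain held several starts of a gene, this choice by itself shortens the upstream reach and lengthens the reach into the gene. The 54 genes had a median length of 9.94 kb, against 17.2 kb over all protein-coding genes. For Gadd45g, Nkx2-9 and LOC108167694, of 1801, 2181 and 929 bp, the merged domain spanned the whole gene. The stretch covered in all 4 libraries was 71.3%, 21.2% and 94.6% of these domains. At Nkx2-9 the peaks covered 2516 and 1921 bp in the dDAVP libraries and 2384 and 1139 bp in the vehicle libraries. The second library of each group thus covered less than the length of that gene. In 4 domains more than 1 gene start was held, as at Ddit3 and Mbd6, Brd2 and H2-DMa, Tgif2 and LOC115486128, and Nek8 and Tlcd1.

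**Figure D4:**
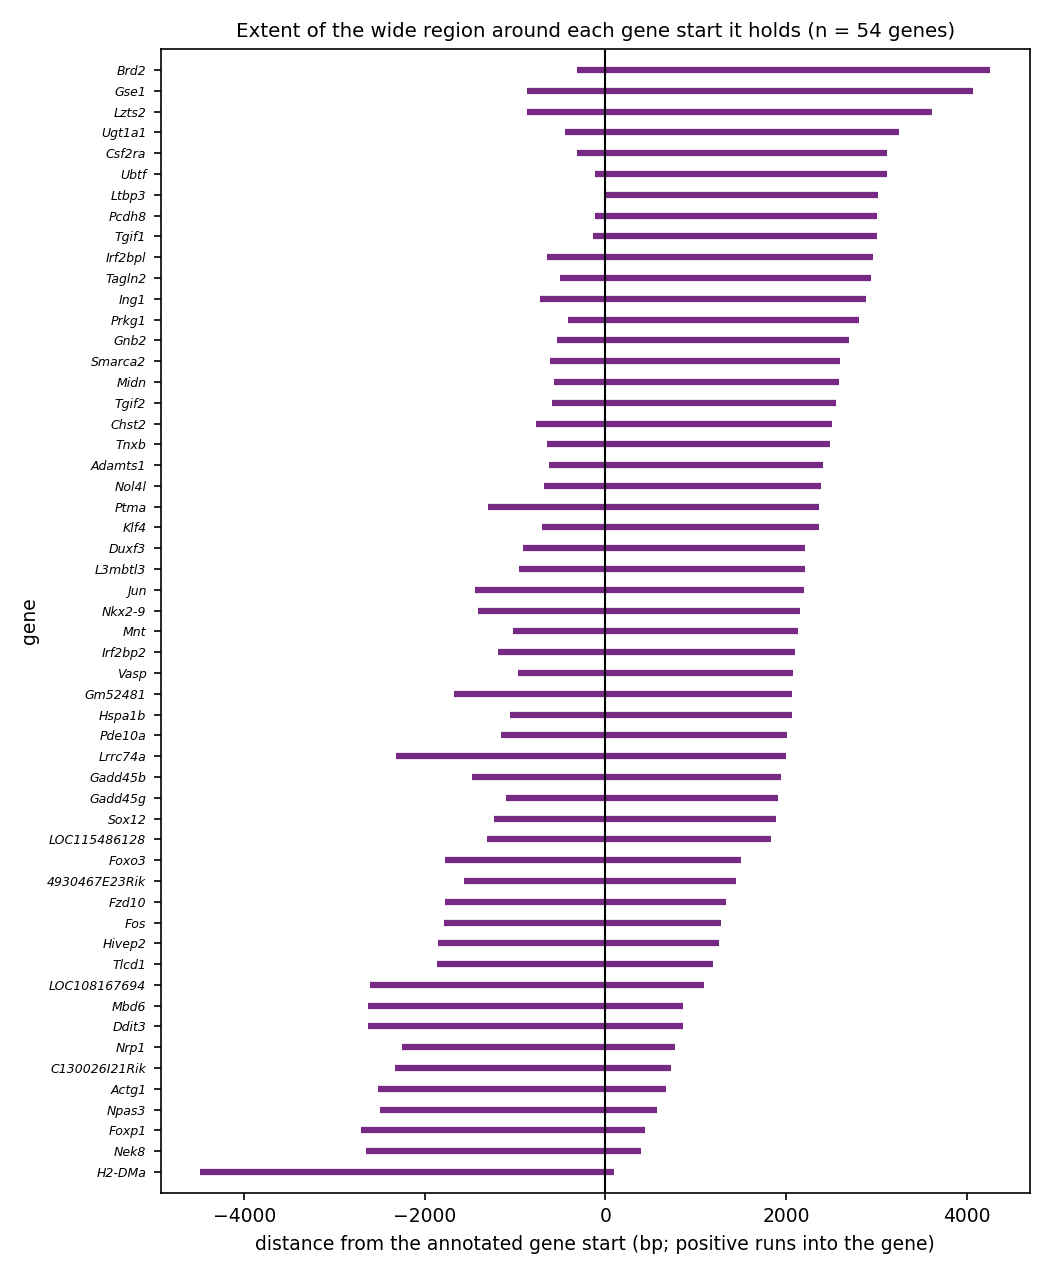
Extent (bp) of the wide domain to either side of the most upstream annotated start of each of the 54 genes, with positive distances running into the gene and 1 bar per gene. At 37 of 54 genes the bar is longer to the right of the start, and Brd2 and Gse1 reach over 4000 bp into the gene.

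Several gene-start domains held a long peak in every library. At Foxo3, a forkhead factor that acts downstream of insulin and Akt signalling, chr10:42275199-42278477 held 1 peak per library of 3176 and 3127 bp in the dDAVP libraries and 3260 and 3158 bp in the vehicle libraries. At Hivep2, a zinc finger factor, the peaks were 3069 and 3041 bp in the dDAVP libraries and 3059 and 3114 bp in the vehicle libraries. At Ubtf, a factor of RNA polymerase I, they were 3064 and 3145 bp in the dDAVP libraries and 3108 and 3202 bp in the vehicle libraries. At Smarca2, an ATPase of SWI/SNF remodelling complexes, they were 3163 and 2978 bp in the dDAVP libraries and 3186 and 3205 bp in the vehicle libraries. At Csf2ra, a receptor subunit for the cytokine GM-CSF, they were 3170 and 3436 bp in the dDAVP libraries and 3349 and 3291 bp in the vehicle libraries. At LOC108167694 they were 3497 and 3692 bp in the dDAVP libraries and 3497 and 3508 bp in the vehicle libraries. At Duxf3 they were 3114 and 3118 bp in the dDAVP libraries and 3120 and 3126 bp in the vehicle libraries. Sox12, Nrp1 (a receptor for semaphorins and VEGF), Foxp1, Mnt (a partner of MAX) and Adamts1 (a metalloproteinase) followed, with the shortest of their 4 widest peaks between 2614 and 2884 bp. At the other end lay Pcdh8, where the widest peaks were 1059 and 204 bp in the dDAVP libraries and 3003 and 643 bp in the vehicle libraries, and Fzd10, with 413 and 273 bp in the dDAVP libraries and 2851 and 650 bp in the vehicle libraries. At both, 1 vehicle library alone had a long peak.

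Of the 21883 protein-coding genes, 89 (0.407%) had a wide domain within 1 kb of an end. Of 38 bZIP factors, the family that includes CREB, AP-1 and CHOP, 3 had one (Jun, Ddit3 and Fos), and all 38 had a shared region of some width at an end. The domain at Jun (3638 bp), a subunit of AP-1, held widest peaks of 2269 and 2273 bp in the dDAVP libraries and 3038 and 2489 bp in the vehicle libraries. At Ddit3, which encodes the stress factor CHOP, and its neighbour Mbd6 (3491 bp), the single peak was 3215 and 3194 bp long in the dDAVP libraries and 2888 and 3227 bp in the vehicle libraries. At Fos, the other subunit of AP-1 (3070 bp), the widest peaks were 1504 and 3040 bp in the dDAVP libraries and 2643 and 2078 bp in the vehicle libraries. At Fos the 2 dDAVP libraries differed more from each other than the groups did. At Jun both dDAVP libraries lay below both vehicle libraries in widest peak, as in 17.5% of all shared regions. The covered length at Jun overlapped, with 3281 and 2639 bp in the dDAVP libraries and 3159 and 2721 bp in the vehicle libraries.

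Of 40 immediate early and feedback genes, 5 had a wide domain at an end. They were Gadd45b and Gadd45g, stress-induced regulators of growth arrest, Dusp4, a phosphatase of MAP kinases, Zfp36l2, a protein that binds AU-rich RNA, and Klf4, a zinc finger factor of epithelia. At Zfp36l2 (3209 bp) the single peak was 3162 and 3162 bp long in the dDAVP libraries and 3159 and 2721 bp in the vehicle libraries. At Gadd45b (3419 bp) the widest peaks were 2814 and 2808 bp in the dDAVP libraries and 2805 and 2033 bp in the vehicle libraries, and at Gadd45g 1892 and 1842 bp in the dDAVP libraries and 2780 and 1769 bp in the vehicle libraries. At Klf4 (3071 bp) they were 1762 and 1700 bp in the dDAVP libraries and 1952 and 2811 bp in the vehicle libraries. At Dusp4 (3237 bp) they were 1757 and 2440 bp in the dDAVP libraries and 1784 and 2392 bp in the vehicle libraries. In widest peak both dDAVP libraries lay below both vehicle libraries at Klf4, as in 17.5% of all shared regions, and above them at Zfp36l2 and Gadd45b, as in 13.2%, there by 3 bp over the nearer vehicle library. The groups overlapped at the other 2 genes and, in covered length, at Gadd45b, with 3064 and 3044 bp in the dDAVP libraries and 3033 and 3059 bp in the vehicle libraries.

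Of 35 SOX and forkhead factors, 3 had a wide domain at an end (Foxo3, Foxp1 and Sox12), and Sox6 and Foxn3 had one inside the gene. In Foxn3 (4749 bp) the widest peaks were 2863 and 4179 bp in the dDAVP libraries and 4342 and 4517 bp in the vehicle libraries. Klf4 was the 1 gene with a wide domain at an end among 26 KLF and SP factors. Tgif1, a repressor of TGF-beta signalling, was 1 of 35 genes of the TGF-beta list, and Smad4, its central mediator, had a domain inside the gene with peaks of 3233 and 3430 bp in the dDAVP libraries and 3535 and 3396 bp in the vehicle libraries. Hspa1b, an Hsp70 gene with a near-identical neighbour copy between which reads may be divided, was 1 of 26 chaperone genes. Actg1, the cytoplasmic gamma actin, was 1 of 34 housekeeping genes, with a single peak of 3096 and 3101 bp in the dDAVP libraries and 3095 and 3074 bp in the vehicle libraries.

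Of the 46 cAMP and protein kinase A genes none had a wide domain at an end, and 2 had one inside the gene. These were Sik3, described above, and Akap6, an anchor protein of protein kinase A (4690 bp), with widest peaks of 4516 and 3854 bp in the dDAVP libraries and 4009 and 4121 bp in the vehicle libraries. Over all protein-coding genes, 187 (0.855%) had a wide domain in the gene or within 1 kb of it. No wide domain lay at an end of any of 26 principal cell genes, 20 corticosteroid-responsive genes, 40 genes of epithelial junctions and keratins, 26 ETS factors, 39 Hox genes, 22 genes of the Hippo pathway, 32 RNA processing factors, 30 ribosome and translation genes or 23 histone genes. The same held for 28 genes of other tubule cells, 32 genes of podocytes, endothelium, stroma and leukocytes and 40 genes of other organs. At a background of 0.407%, lists of this size hold well under 1 such gene on average, so these zeros carry little information, and the counts of 3 and 5 are given as descriptions only.

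The rule took no account of the treatment, but the merged width is built from the same peaks whose length is compared here, so a domain can be a member through 1 library in which it is long. With 19 domains carried in this way by vehicle replicate 1, against 4, 2 and 4 by the other libraries, low ratios of dDAVP to vehicle are partly set by the choice of members. The length of each domain covered by peaks was tested as log2 values, quantile-normalized between libraries, with limma fitted over all 88231 shared regions. No domain was called at an adjusted p of 0.05, and no shared region was either (0% called). The lowest adjusted p among the domains was 0.887. At an unadjusted p under 0.05 there were 4 domains of 309 (1.29%), all lower with dDAVP, against 4655 of all shared regions (5.28%). Without vehicle replicate 1 there were 2 such domains, both higher with dDAVP. The median half-width of a domain's unadjusted 95% interval was 0.83 on the log2 scale, with 2 libraries per group. The calls were adjusted over all 88231 shared regions, so larger differences also went uncalled. Fzd10, at -1.60 on the log2 scale, had a limma adjusted p of 0.887.

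The domains had a median covered length of 2892 and 2758 bp in the dDAVP libraries and 3004 and 2783 bp in the vehicle libraries. The dDAVP median was 2825 ± 94.8 bp and the vehicle median 2894 ± 156 bp (SD, n = 2 each), and a two-sided exact permutation test gave p = 0.667, where the smallest value that 2 against 2 allows is 0.333. After quantile normalization the medians differed by -0.013 on the log2 scale, dDAVP minus vehicle (exact permutation p = 0.667). The difference turned to 0.0067 without dDAVP replicate 2 and to 0.0088 without vehicle replicate 1. Single peaks of 3000 bp or more numbered 103 and 102 in the dDAVP libraries and 125 and 91 in the vehicle libraries, a ratio of means of 0.949 (two-sided exact permutation p = 1). Per 100000 peaks of a list they averaged 42.5 ± 10.1 in the dDAVP libraries and 37.8 ± 8.65 in the vehicle libraries (SD, n = 2 each), a ratio of 1.12 (exact permutation p = 0.667), so the direction turned with the scaling. In the number of such peaks the 2 vehicle libraries lay on either side of both dDAVP libraries. Per 100000 peaks the groups overlapped as well, with 35.3 and 49.6 in the dDAVP libraries and 31.7 and 44.0 in the vehicle libraries. The members took up 0.933% and 1.17% of all covered length in the dDAVP libraries and 0.730% and 1.16% in the vehicle libraries, and the lower share in each group belonged to its longer list.

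Both dDAVP libraries lay above both vehicle libraries in covered length at 28 domains (9.06%, against 12.9% of all shared regions), and below both at 58 (18.8%, against 17.5%). Both shares of the domains were near those of all shared regions or under them. The ratio of mean covered lengths, dDAVP over vehicle, lay between 0.8 and 1.25 in 259 of the 309 domains and ranged from 0.176 to 1.62, the highest at a domain whose groups overlapped. No domain exceeded a ratio of 2, and 6 had a ratio under 0.5.

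Among the domains whose groups did not overlap, the lowest ratio was at 5031439G07Rik (chr15:84948211-84951210), with 325 and 263 bp covered in the dDAVP libraries and 2722 and 613 bp in the vehicle libraries. Fzd10 had 600 and 746 bp in the dDAVP libraries and 2851 and 1528 bp in the vehicle libraries (ratio 0.307). Ankrd11, a chromatin regulator, had 878 and 367 bp in the dDAVP libraries and 2026 and 1401 bp in the vehicle libraries (ratio 0.363). Near Gm46305, chr12:21977723-21982176 had 1338 and 1635 bp in the dDAVP libraries and 3529 and 2872 bp in the vehicle libraries (ratio 0.464). At all 4 the stretch covered in every library was at most 14.0% of the domain, and vehicle replicate 1, the longest list, had the greatest covered length. At 5031439G07Rik and Fzd10 the widest peak of vehicle replicate 1 was over 2 times that of any other library, so these domains met the width rule through that library and their ratios are a description only. None of the 4 was called by limma.

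In the other direction, the greatest ratio among domains whose groups did not overlap was near Olfr780, an olfactory receptor gene, with 2746 and 2276 bp covered in the dDAVP libraries and 1947 and 1492 bp in the vehicle libraries (ratio 1.46). Xpnpep1, an aminopeptidase, had 2248 and 1913 bp in the dDAVP libraries and 1089 and 1887 bp in the vehicle libraries (ratio 1.40). Klhdc4 had 3786 and 3216 bp in the dDAVP libraries and 3167 and 2013 bp in the vehicle libraries (ratio 1.35). Ptprt, a receptor tyrosine phosphatase, had 2022 and 2334 bp in the dDAVP libraries and 1435 and 1918 bp in the vehicle libraries (ratio 1.30). At each of these 4 domains the limma adjusted p rounded to 1.00.

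**Figure D5:**
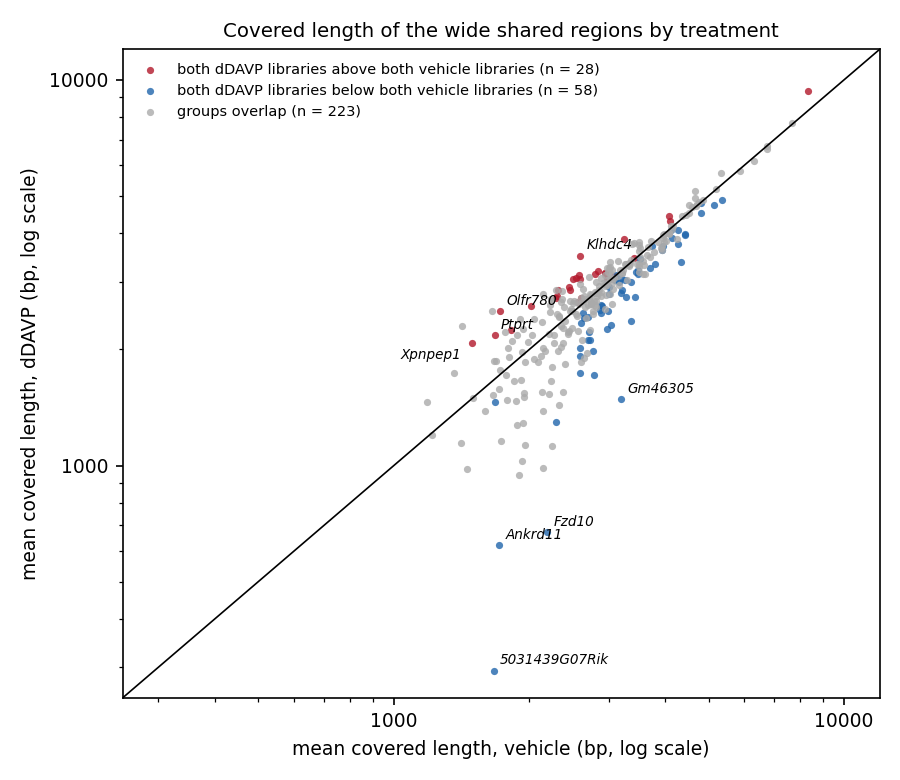
Mean length (bp, log scales) covered by peaks in the dDAVP libraries against the vehicle libraries for each of the 309 domains, with colours for domains whose groups do not overlap and a line of equality. Most domains lie along the line, 28 lie with both dDAVP libraries above and 58 with both below, and the 8 labelled domains are those with the greatest ratios in each direction among these.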

How the data were processed

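Cultured mpkCCD clone 11 cells were treated with 0.1 nM dDAVP or vehicle for 30 minutes (2 libraries each), and the ATAC-seq libraries (50000 cells each) were read from both ends over 50 bases, per the labels. The tools named in the submitters' processing notes are MACS2, bedtools, Picard, SAMtools, Bowtie2 and cutadapt, with the build mm10. Their roles, versions and settings (peak threshold, duplicate and mitochondrial reads, transposase shift) are not stated in these notes. The authors deposited 1 peak list per library whose 3 columns give the chromosome, the start and the end of each peak and hold no other value, such as a score or signal, and as far as these lists show each library was called by itself. The depth of sequencing is unknown, and a more deeply sequenced library can yield more and wider peaks.

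Peaks overlapping by 1 bp or more were merged, with touching peaks kept apart, and coordinates are given 1-based. Genes came from a RefSeq table on GRCm38.p6 (21883 nuclear protein-coding genes with a position), which has no strand, so 1 kb windows were set around both outermost ends of each gene. Starts and promoter sequences came from a RefSeq promoter table of the same assembly, which matched 17491 of these genes (79.9%), and no start on chromosome 18 was used. Covered length per domain and library was compared with limma 3.58.1 in R 4.3.3 on log2 values of all shared regions, with Benjamini-Hochberg adjustment over all of them, and the medians with exact permutation tests over libraries. Merging and counting used Python 3.11.15 with pandas 2.3.3. Merging and the limma step were run on simulated data to check the code. The limma simulation used large changes and little noise, so it does not show how small a change could be called here. Intervals on shares are exact binomial intervals.

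The members, the 21 gene lists (648 genes) and the tests were chosen with earlier results of these data known. By the rule used, the text names the 12 widest domains, the 10 with the longest peak in their lowest library, the 5 nearest the threshold on either side, the 6 widest over 10 kb from a gene and inside genes, list members with a domain at a gene end, genes with 2 or more domains, 4 domains per treatment direction and Aqp2. Domains on scaffolds are given by width alone. Some items that the rule takes are left out of the text. The rule asked for promoters among the widest domains, which held no gene start, so the 6 promoters shown, the mitochondrial domains, the domains at gene starts and the domains on chromosome 14 and in Foxn3, Smad4 and Akap6 were chosen after their values were seen. The alternatives tried were other merging distances, width thresholds, windows, normalization and measures, a replicate block and leaving out each library.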

Additional observations from a re-analysis of the deposited data

How the results depend on the processing

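The number of domains depends on the rule itself. It was 839 at a merged width of 2500 bp, 72 at 4000 bp and 77 where 3000 bp had to be covered in all 4 libraries, against 309 in the report. Leaving out 1 library gave 201 to 253 domains. Merging peaks within 100 bp gave 333, keeping peaks of at least their library's median width 299, and cutting each list to its widest 205771 peaks 308. The share at a gene end was 25.9%, and 24.9% to 27.1% when 1 library was left out. It was 13.3% by the centre of the domain. In an alternative chosen after seeing the data, without scaffolds, the mitochondrial genome, chromosome starts and runs, it was 34.3% of 210 domains. With windows of 0.5 and 2.5 kb and with wider peaks alone it stayed between 24.3% and 29.4%.

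No domain was called for treatment by limma under any alternative (0 of 309 in each). The domains at an unadjusted p under 0.05 numbered 1 to 5 when 1 library was left out (all lower with dDAVP, except that both of the 2 without vehicle replicate 1 were higher), 2 without quantile normalization, 10 (8 lower and 2 higher) with the widest single peak and 3 among regions of 500 bp or more. With replicate number as a block they numbered 7 with 0 called, and the lowest adjusted p was 0.874. The deviations of the first dDAVP and first vehicle library from their group means correlated at 0.0969 over all shared regions and at 0.425 over the domains, and with 2 pairs the numbers are not shown to pair the libraries. The difference of medians on the log2 scale was -0.034 without quantile normalization, -0.022 with the widest peak and -0.036 to 0.0088 when 1 library was left out, so its sign rests on single libraries. The ratio of the numbers of peaks of 3000 bp or more was 0.820 to 1.13 when 1 library was left out and 0.931 at 2500 bp. Depth is unknown and limits how far widths compare between libraries.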
